A study of Mus musculus with 8 samples.

Results

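The genes described here are 34 genes of cholesterol and fatty acid synthesis and of their control, out of 55341 gene symbols counted per library. They were chosen by symbol, as known genes of the pathway and with earlier results of these data in view. They comprise 18 enzymes of the sterol route, 5 genes of the SREBP transcription factors and their regulators, and 8 enzymes of fatty acid synthesis. The others are Thrsp, Stard4 and Abca1. RNA came from nuclei of cortical GABAergic neurons, the inhibitory neurons of the cortex, with 1 library per mouse. The mice were juvenile, and all carried a Cre-dependent reporter that labels the nuclei of GABAergic neurons for sorting; the Cre driver, the age and the hormone dose are not given in the sources used here. Both groups were made hypothyroid by propylthiouracil (PTU), a drug that blocks the making of thyroid hormone and that their mothers received while pregnant. The PTU group (mice 9 to 12, n = 4) had no further treatment, while mice 13 to 16, the PTU+TH group (n = 4), were injected intraperitoneally with thyroid hormone (TH), and brains were taken 24 h later. Untreated mice with normal thyroid hormone were not analysed here, so the comparison is of an injection with none, on a hypothyroid background.

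Cells build cholesterol from acetyl-CoA through mevalonate, squalene and lanosterol, and fatty acids from acetyl-CoA through malonyl-CoA. Both routes are driven by the SREBP factors, which are held in the endoplasmic reticulum by INSIG proteins when sterols are plentiful and are carried by SCAP to the Golgi for activation when sterols are scarce. The brain makes its own cholesterol, since lipoproteins of the blood do not cross into it, and demand is high while axons and myelin grow. In liver, thyroid hormone is a known inducer of lipid synthesis genes, and Thrsp (thyroid hormone responsive, also called Spot 14) takes its name from that response.

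Library totals lay between 21762810 and 29084071 counts. Hr, a corepressor gene and known TH target, ranged from 1.05 to 2.22 CPM (counts per 1000000 counts of the library, scaled by TMM) without the injection and from 24.6 to 28.5 CPM after it, as the labels require. The summed level of 5 GABAergic markers ran from 1118 to 1227 CPM without the injection and from 1041 to 1126 CPM after it. Of the 4 tested, 2 were higher and 2 lower in PTU+TH, with 0 at an edgeR adjusted p under 0.05. Dlx6os1 ran from 204.0 to 275.2 CPM without the injection and from 188.4 to 196.3 CPM after it. Slc32a1 ran from 9.01 to 20.8 CPM and from 12.99 to 21.12 CPM. Dlx1 was listed at 0 in all libraries, as were the astrocyte gene Gfap and the microglial gene P2ry12, and these zeros are not read as absence of the cells, since how reads were assigned to genes is not given in the sources used here. Markers of excitatory neurons (6 genes) were also measured, and their values stand beside the sterol enzymes. Mice 15 and 16 had 0 counts of 4 Y-linked genes, while the other 6 libraries had 7960 to 11548 such counts in all. Mice without Y-linked counts were thus found in the PTU+TH group only.

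None of the lipid synthesis genes passed the test. Of 33 genes with enough counts to be tested, 0 were called at an adjusted p under 0.05 (edgeR quasi-likelihood test, adjusted over 17355 genes), against 2.12% of all genes tested (1.49% higher and 0.634% lower). DESeq2 and limma voom also called 0. At an unadjusted p under 0.05 there were 4, which is 12.1% of the 33, close to the 12.8% of all genes tested in either direction. All 4 were lower in PTU+TH, against 6.17% of all genes tested, and none was higher, against 6.59%. These were the sterol enzymes Fdft1, Fdps, Lss and Acat2. Log2 fold changes (PTU+TH over PTU) ran from -0.72 to 0.76 with a median of -0.03, beside -0.01 over all genes tested. The 95% interval of the change lay within a 1.5-fold change in both directions for 21 of the 33 genes (63.6%, against 52.9% over all genes tested). For 8 genes it reached a 1.5-fold decrease and for 4 a 1.5-fold increase, so a change of that size is inside the interval for those 12 genes. The 34th gene, Mvd, which encodes mevalonate diphosphate decarboxylase, was listed at 0 in all 8 libraries. Its whole body lies inside another gene model, Gm20388, on chromosome 8 (122433601 to 122443422, GRCm38), and a 0 there is not read as absence of expression.

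**Figure D1:**
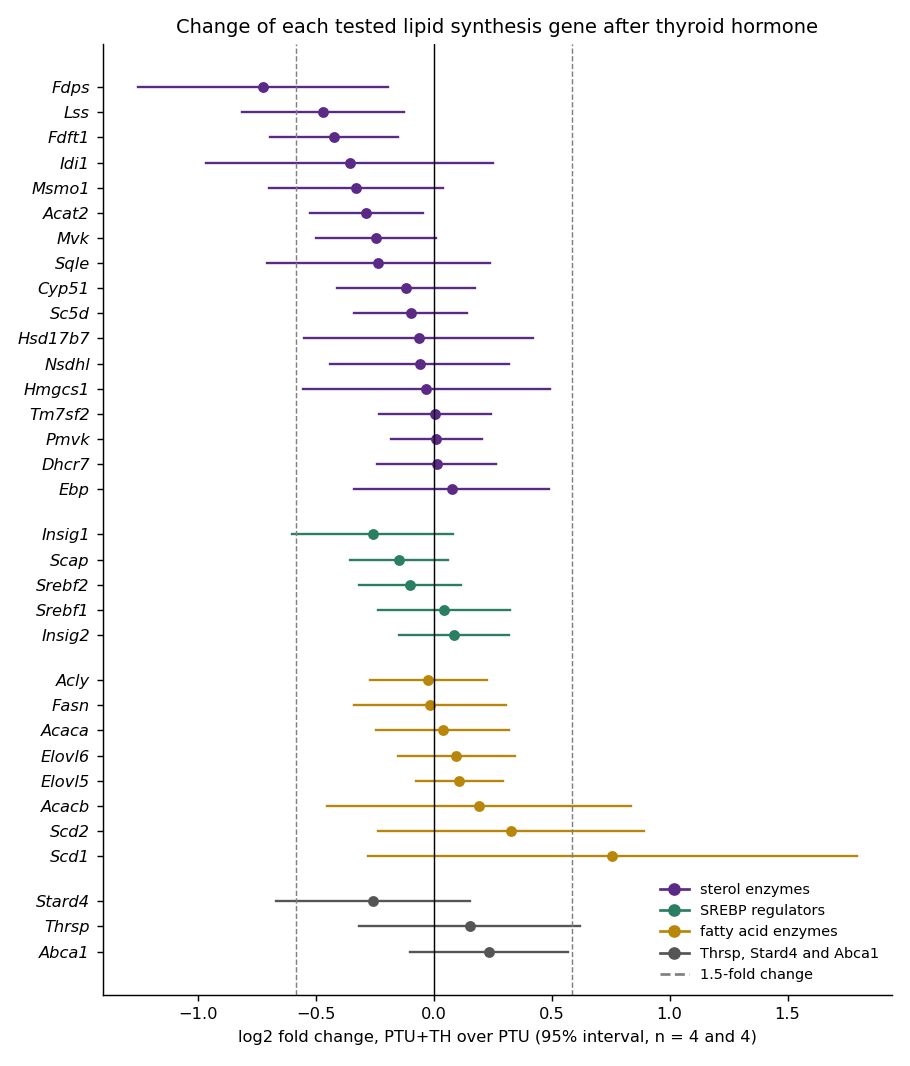
Log2 fold change of each of the 33 tested genes (x axis, PTU+TH over PTU; points) with its 95% interval (bars), ordered by role and by size, with dashed lines at a 1.5-fold change. Most sterol enzymes lie left of 0 and most fatty acid enzymes right of it, and only the intervals of Fdps, Lss, Fdft1 and Acat2 do not include 0.

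Among the sterol enzymes, 13 of 17 tested genes had a log2 fold change below 0, with a median of -0.12. The count was 16 of 17 when libraries were scaled by their totals only, 14 of 17 with limma voom, and 10 of 17 without PTU mouse 9, where the median was -0.01. Without mouse 10, 11 or 12 the median was -0.06, -0.20 or -0.21. Over all genes tested, 51.4% lay below 0. The 3 lowest values were those of Fdps, Lss and Fdft1, which act between the isoprenoid units and lanosterol. Sqle, which acts on the same stretch, was at -0.23, and at -0.0096 without PTU mouse 9.

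Fdft1 encodes squalene synthase, which joins farnesyl diphosphate units and commits them to sterols (chromosome 14, 63145150 to 63179578). It measured 50.5, 47.2, 40.5 and 33.6 CPM in mice 9, 10, 11 and 12, which had no injection, and 32.5, 29.02, 32.6 and 34.3 CPM in the injected mice 13, 14, 15 and 16. Mouse 12 lay among the PTU+TH libraries, and the other 3 PTU libraries lay above all of them. The log2 fold change was -0.42 (SE 0.13, 95% interval -0.69 to -0.15; edgeR adjusted p = 0.122). Without PTU mouse 12 it was -0.52 and passed the test (edgeR adjusted p = 0.043), the only call of a lipid synthesis gene in any alternative fit; across the fits that each left out a library its adjusted p ran from 0.043 to 0.301.

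Fdps encodes farnesyl diphosphate synthase, the enzyme just before squalene synthase. Its counts were 78, 100, 49 and 58 without the injection and 40, 50, 45 and 33 after it, or 2.84, 3.76, 2.42 and 2.54 CPM against 1.69, 1.72, 2.04 and 1.57 CPM. The groups did not overlap in CPM. The log2 fold change was -0.72 (SE 0.25, 95% interval -1.25 to -0.19; edgeR adjusted p = 0.194), the lowest of all 33. Only 20.4% of its exon length is free of other gene models (chromosome 3, 89093588 to 89101959), and its counts are low and uncertain.

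Lss encodes lanosterol synthase, which closes the sterol rings (chromosome 10, 76531588 to 76557138). It measured 10.3, 12.3, 10.7 and 9.45 CPM without the injection and 7.80, 8.39, 6.13 and 8.61 CPM after it, again without overlap. The log2 fold change was -0.47 (SE 0.16, 95% interval -0.81 to -0.12; edgeR adjusted p = 0.198). An antisense gene model, 4930483K19Rik, covers much of it, and 31.5% of its exon length is free. Fdps and Lss were 2 of 33 genes (6.06%) whose PTU+TH libraries all lay below all PTU libraries, where the share over all genes tested was 4.03%. None showed the opposite, against 4.68%, and the share over both directions was 8.71%.

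Acat2 encodes the cytosolic thiolase that joins acetyl-CoA units at the head of the route (chromosome 17, 12942890 to 12960747). It measured 47.9, 46.0, 40.7 and 35.5 CPM without the injection and 37.2, 34.2, 36.6 and 31.5 CPM after it. Here too mouse 12 fell within the PTU+TH range. The log2 fold change was -0.29 (SE 0.11, 95% interval -0.53 to -0.05; edgeR adjusted p = 0.271).

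Hmgcs1 and Sqle, which feed and continue the same route, differed more between PTU mice than most sterol enzymes did. Their coefficients of variation in PTU were 37.5% and 34.8%, where the median of the sterol enzymes was 18.1%. Hmgcs1, the HMG-CoA synthase, measured 65.2, 45.0, 35.9 and 27.4 CPM without the injection and 34.7, 39.4, 52.4 and 43.8 CPM after it, with PTU+TH values inside the PTU range (log2 fold change -0.03, 95% interval -0.55 to 0.49; edgeR adjusted p = 0.985). Without PTU mouse 9 its log2 fold change was 0.24. Sqle, the squalene epoxidase, measured 63.4, 50.5, 30.0 and 33.8 CPM without the injection and 41.3, 30.2, 39.8 and 40.1 CPM after it, also within the PTU range (log2 fold change -0.23, 95% interval -0.71 to 0.24; edgeR adjusted p = 0.755). Without PTU mouse 9 the log2 fold change of Sqle was -0.0096.

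The other 11 tested sterol enzymes had log2 fold changes from -0.36 to 0.08. Idi1, the isopentenyl diphosphate isomerase, was at -0.36, Msmo1, a sterol methyl oxidase, at -0.33 and Mvk, the mevalonate kinase, at -0.24, with edgeR adjusted p-values of 0.691, 0.472 and 0.423. Idi1 was at -0.16 without mouse 10 and -0.54 without mouse 12, and Msmo1 at -0.20 without mouse 14. Cyp51, the lanosterol demethylase, was at -0.12 and Sc5d, a sterol desaturase, at -0.10, and without PTU mouse 9 these were -0.0027 and -0.0061. Hsd17b7 and Nsdhl, which act in the removal of the sterol methyl groups, were at -0.06 each. The 4 values above 0 were those of Tm7sf2 (0.01), Pmvk (0.01), Dhcr7 (0.01) and Ebp (0.08). Pmvk, the phosphomevalonate kinase, was the most tightly bounded sterol enzyme, with a 95% interval of -0.18 to 0.20. Nsdhl and Ebp lie on chromosome X, and their PTU+TH levels were close together, with SDs of 0.52 around 12.1 CPM and 0.43 around 8.68 CPM (n = 4), with mice 15 and 16 among them.

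**Figure D2:**
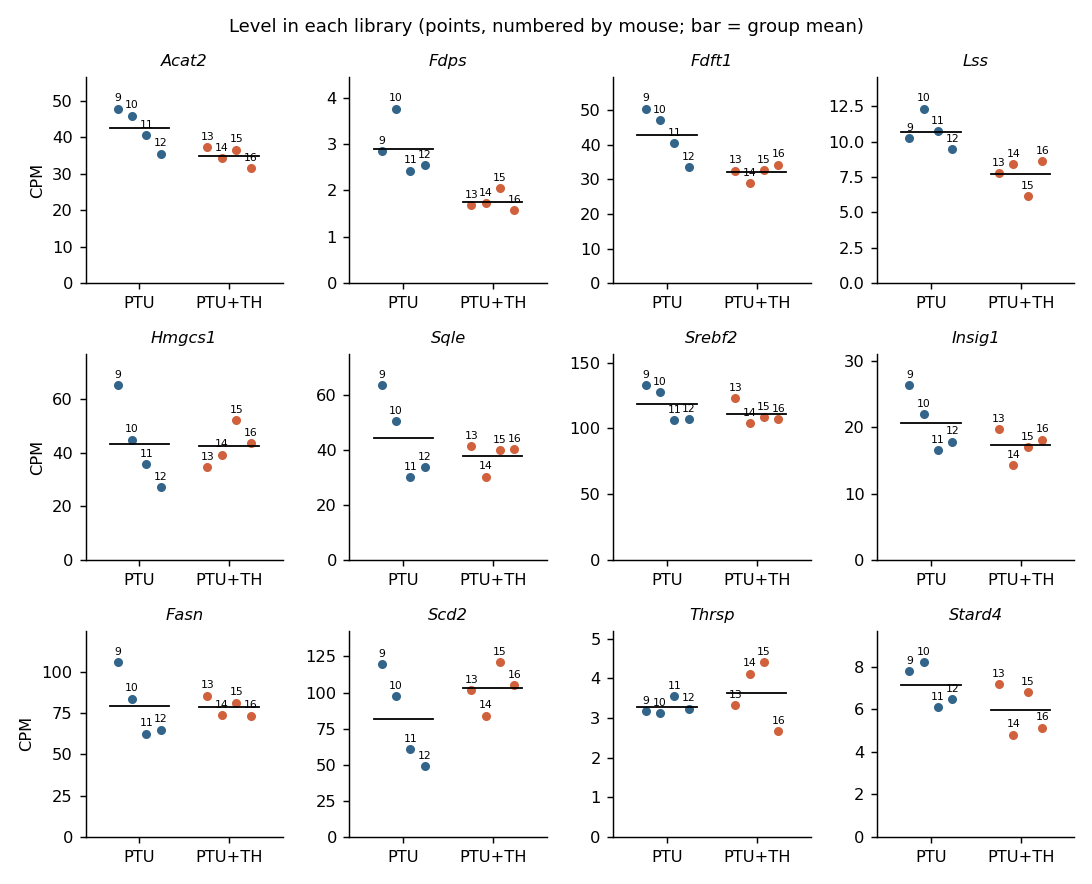
Level in CPM (y axis, from 0) of 12 genes in each library (points, numbered by mouse), with PTU in blue, PTU+TH in orange and the group mean as a bar. Fdps and Lss show no overlap between the groups, and Hmgcs1, Sqle, Fasn and Scd2 spread widely among the PTU mice, with mouse 9 highest.

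The PTU mice differed among themselves in the sterol enzymes. Mouse 9 was the highest PTU library for 9 of 17 tested enzymes and mouse 10 for 7, where mouse 9 was highest for 29.6% and mouse 10 for 22.7% of all genes tested. Mouse 12 was the lowest for 9 and mouse 11 for 7, against 24.6% and 26.0% of all genes tested. Summed over the 17 enzymes, the level was 642, 597, 481 and 459.5 CPM in PTU mice 9 to 12 and 524, 455, 500.3 and 494 CPM in PTU+TH mice 13 to 16. All 4 PTU+TH sums lay below those of mice 9 and 10, and 3 of them lay above those of mice 11 and 12. The median coefficient of variation of the sterol enzymes was 18.1% in PTU and 11.6% in PTU+TH, close to the 17.1% and 13.2% over all genes tested.

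Markers of other cells differed between the same libraries. Excitatory neuron markers summed to 101.3, 94.5, 53.0 and 35.1 CPM in PTU mice 9 to 12 and to 90.1, 44.1, 113.6 and 58.6 CPM in PTU+TH mice 13 to 16. All 6 had log2 fold changes above 0, 0 were called, and none was at 0 counts in all libraries. Astrocyte markers summed to 125.0 to 240.6 CPM without the injection and 127.2 to 366.4 CPM after it (4 of 5 tested higher, 0 called), and oligodendrocyte markers to 97.2 to 127.3 CPM and 96.3 to 196.3 CPM (6 of 7 higher, 0 called). In PTU the order of the mice was the same for the sterol enzymes, the excitatory markers and the oligodendrocyte markers. The oligodendrocyte markers summed to 127.3, 117.5, 103.4 and 97.2 CPM in mice 9 to 12. Microglial markers summed to 9.90 to 15.2 CPM without the injection and 14.1 to 27.8 CPM after it (4 of 5 tested higher), oligodendrocyte precursor markers to 43.0 to 62.1 CPM and 40.1 to 66.1 CPM (2 of 3 higher), and endothelial markers to 33.7 to 161.1 CPM and 35.6 to 114.0 CPM (2 of 6 higher), with 0 called. In PTU+TH mouse 14 had the lowest sum for the sterol enzymes and for the excitatory, astrocyte and oligodendrocyte markers. The highest sum was that of mouse 13 for the sterol enzymes and of mouse 15 for those 3 marker lists. The part of other cells in the sterol enzyme levels was not tested, and in bulk nuclei fewer cells of a type and less RNA per cell cannot be told apart.

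**Figure D3:**
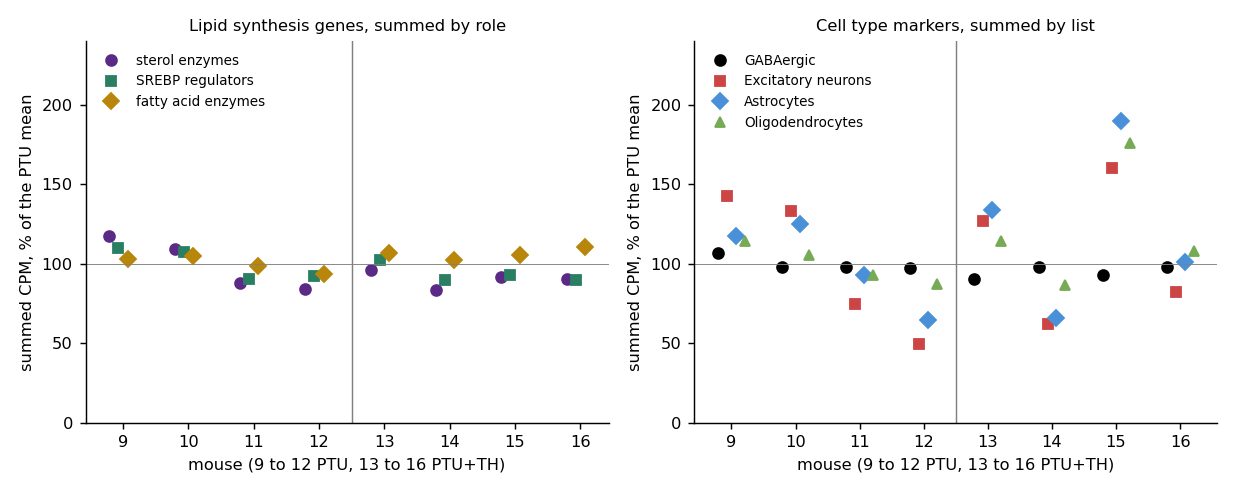
Summed CPM in each library as a percentage of the PTU mean (y axis), for 3 roles of the lipid synthesis genes (left) and 4 lists of cell type markers (right), by mouse (x axis). The sterol enzymes range from 83.5% to 117.8% and the excitatory markers from 49.5% to 160.0%. The sum of the GABAergic markers stays between 90.6% and 106.8%, while Slc32a1 alone ran from 9.01 to 20.8 CPM in PTU.

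The promoters of these genes show what they share in sequence. RefSeq promoters (build GRCm38.p6, 250 bases before to 50 bases after a start) were at hand for 28 of the 34 genes, with 36 promoters among them. Short motifs were sought on both strands. The box CCAAT is bound by the factor NF-Y, which works beside SREBP. It was in 24 of the 36 promoters (66.7%), against 37.4% of 32851 promoters of all genes. Counted by gene, it was in at least 1 promoter of 14 of 15 sterol enzymes. The share by gene over all genes was not computed. The E-box CACGTG was in 22.2% against 7.15%. The sterol regulatory element in the form TCACNCCAC was in 1 promoter, that of Hmgcs1, against 1.24% of all promoters. The hexamer AGGTCA, bound by nuclear receptors with the thyroid hormone receptors among them, was in 22.2% against 16.3%, and its direct repeat with a gap of 4 bases was in 0 of the 36, against 0.0152% of all. These matches describe letters in the window and not binding.

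The 250 bases before the start are shown for 4 genes, 5′ to 3′ on the gene's strand, with every match to these motifs in capitals. Hmgcs1 (chr13:119690101-119690350, plus strand) was chosen after its motifs were seen, since it carries the sterol regulatory element TCACCCCAC, 137 bases before the start, beside 3 CCAAT boxes on the other strand and 1 hexamer on the other strand. Insig1 (chr5:28071162-28071411, plus strand), also chosen afterwards, holds a CCAAT box on the other strand and a hexamer that runs into an E-box. Lss (chr10:76531355-76531604, plus strand) and Acat2 (chr17:12960726-12960975, minus strand) are those of the 4 lowest p-values with an entry. Lss has 1 CCAAT box and Acat2 has no match.
Hmgcs1: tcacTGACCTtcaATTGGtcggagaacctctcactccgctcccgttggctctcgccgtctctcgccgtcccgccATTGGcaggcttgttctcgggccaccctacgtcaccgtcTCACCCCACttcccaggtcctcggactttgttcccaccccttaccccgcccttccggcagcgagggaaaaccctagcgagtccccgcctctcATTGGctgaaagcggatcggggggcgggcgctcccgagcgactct
Insig1: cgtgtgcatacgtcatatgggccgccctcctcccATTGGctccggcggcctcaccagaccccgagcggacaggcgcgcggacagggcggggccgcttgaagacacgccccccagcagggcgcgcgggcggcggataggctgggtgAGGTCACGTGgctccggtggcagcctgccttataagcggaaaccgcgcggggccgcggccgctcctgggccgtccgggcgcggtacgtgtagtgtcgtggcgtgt
Lss: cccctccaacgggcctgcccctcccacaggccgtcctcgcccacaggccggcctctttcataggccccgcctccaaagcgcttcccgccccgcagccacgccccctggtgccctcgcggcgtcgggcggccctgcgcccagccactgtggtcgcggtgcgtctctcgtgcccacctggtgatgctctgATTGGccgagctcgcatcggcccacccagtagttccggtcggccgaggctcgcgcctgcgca
Acat2: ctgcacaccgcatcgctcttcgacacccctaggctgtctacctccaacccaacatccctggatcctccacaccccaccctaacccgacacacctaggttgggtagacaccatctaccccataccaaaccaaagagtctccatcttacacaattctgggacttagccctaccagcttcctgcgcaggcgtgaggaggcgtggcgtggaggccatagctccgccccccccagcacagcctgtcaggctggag

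The genes of the SREBP factors and their regulators did not pass the test either, and 4 of the 5 had intervals within a 1.5-fold change. Srebf2, the factor that mainly drives sterol genes, measured 132.6, 127.8, 106.2 and 107.2 CPM without the injection and 122.8, 103.8, 108.7 and 107.2 CPM after it, with overlap (log2 fold change -0.10, 95% interval -0.31 to 0.12; edgeR adjusted p = 0.783). Srebf1, whose product mainly drives fatty acid genes, measured 15.8, 15.0, 15.8 and 14.9 CPM without the injection and 19.4, 14.2, 14.7 and 15.2 CPM after it. Mouse 13 was the highest, and the other 3 PTU+TH libraries lay around the PTU level (log2 fold change 0.04, 95% interval -0.24 to 0.32; edgeR adjusted p = 0.952).

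Scap, which encodes the escort protein of SREBP, measured 97.3, 103.0, 83.4 and 90.2 CPM without the injection and 95.7, 84.1, 80.6 and 77.5 CPM after it (log2 fold change -0.15, 95% interval -0.35 to 0.06; edgeR adjusted p = 0.61). Insig1, a retention protein that is itself an SREBP target, measured 26.3, 22.02, 16.5 and 17.8 CPM without the injection and 19.8, 14.3, 17.0 and 18.1 CPM after it. As with the enzymes, mice 9 and 10 were the highest of all 8 libraries (log2 fold change -0.26, 95% interval -0.60 to 0.08; edgeR adjusted p = 0.571). Without mouse 9 the log2 fold change of Insig1 was -0.12. Its paralog Insig2 measured 39.2, 35.8, 34.7 and 31.8 CPM without the injection and 32.6, 38.7, 42.8 and 36.3 CPM after it, with overlap (log2 fold change 0.09, 95% interval -0.15 to 0.32; edgeR adjusted p = 0.846).

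In the fatty acid branch, 6 of 8 genes had log2 fold changes above 0, with a median of 0.10, and 0 passed the test. The count ran from 5 of 8 without mouse 13 to 8 of 8 without mouse 10, and the median was 0.06 without mouse 16 and 0.16 without mouse 14, where 51.4% of all genes tested lay below 0 with all 8 libraries. Fasn, the fatty acid synthase, measured 105.7, 83.8, 62.5 and 64.9 CPM without the injection and 85.6, 73.8, 81.3 and 73.5 CPM after it. The PTU+TH libraries lay between the extremes of PTU (log2 fold change -0.01, 95% interval -0.34 to 0.31; edgeR adjusted p = 0.989). Acaca, the acetyl-CoA carboxylase that supplies malonyl-CoA, measured 148.0, 194.8, 222.2 and 218.5 CPM without the injection and 204.3, 217.5, 173.4 and 209.7 CPM after it. Unlike Fasn it was lowest in mouse 9 (log2 fold change 0.04, 95% interval -0.24 to 0.32; edgeR adjusted p = 0.959).

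Acly, the ATP citrate lyase that makes cytosolic acetyl-CoA, averaged 67.7 ± 12.2 CPM (SD, n = 4) without the injection and 66.7 ± 1.77 CPM (SD, n = 4) after it, a log2 fold change of -0.02. Elovl5 and Elovl6, which lengthen fatty acids, had log2 fold changes of 0.11 and 0.10, and Elovl5 had the narrowest interval of this branch (-0.08 to 0.29). Acacb, the mitochondrial carboxylase, had few counts, 78 to 127 without the injection and 57 to 155 after it (log2 fold change 0.19, 95% interval -0.45 to 0.84).

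The stearoyl-CoA desaturases, which put the first double bond into saturated fatty acids, varied with single libraries. Scd2, the main desaturase of brain, measured 119.8, 97.6, 61.0 and 49.2 CPM without the injection and 101.9, 84.0, 120.9 and 105.1 CPM after it. Mice 11 and 12 were below all PTU+TH libraries and mouse 9 was near the top of them (log2 fold change 0.33, SE 0.25, 95% interval -0.23 to 0.89; edgeR adjusted p = 0.685). It was 0.15 without mouse 12, 0.21 without mouse 11 and 0.57 without mouse 9, and 0.18 both in the 6 libraries with Y-linked counts and with those counts as a term. In PTU the order of the mice for Scd2 was that of the summed excitatory and oligodendrocyte markers. In PTU+TH mouse 14 was lowest and mouse 15 highest for Scd2 and for both sums. The part of other cells in Scd2 was not tested. Counts of Scd1 were low, with 27, 48, 14 and 5 without the injection and 48, 48, 23 and 34 after it (log2 fold change 0.76, SE 0.48, 95% interval -0.28 to 1.79; edgeR adjusted p = 0.588). It was 0.44 without mouse 12 and 1.31 without mouse 10. The paralogs lie close together on chromosome 19 (Scd2 at 44293674 to 44306864, Scd1 at 44394455 to 44407879) and are similar in sequence, so reads could be divided between them.

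Thrsp, the gene named for its response to thyroid hormone, showed no detectable response here. Its counts were 87, 83, 72 and 74 without the injection and 79, 120, 97 and 56 after it, or 3.17, 3.12, 3.56 and 3.24 CPM against 3.33, 4.12, 4.41 and 2.67 CPM. The PTU+TH libraries spread over both sides of the PTU range. Its log2 fold change was 0.15 (SE 0.22, 95% interval -0.32 to 0.62, edgeR adjusted p = 0.87), while Hr, measured in the same libraries, was at 3.88 (edgeR adjusted p = 6.59e-07). That of Thrsp was 0.05 without mouse 15 and 0.27 without mouse 16. Stard4 encodes a cytosolic sterol carrier and measured 7.80, 8.204, 6.09 and 6.47 CPM without the injection and 7.17, 4.81, 6.81 and 5.14 CPM after it, with overlap (log2 fold change -0.26, 95% interval -0.67 to 0.15; edgeR adjusted p = 0.665). Abca1, the exporter that loads cholesterol onto lipoproteins, measured 21.5, 29.7, 26.4 and 21.96 CPM without the injection and 32.1, 27.9, 35.2 and 21.8 CPM after it. Mice 13 and 15 were the highest and mouse 16 was near the lowest PTU library (log2 fold change 0.24, 95% interval -0.10 to 0.57, edgeR adjusted p = 0.606). Without mouse 15 the log2 fold change of Abca1 was 0.14, and without mouse 16 it was 0.35.

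A wider list of 56 lipid genes was read beside them, of which 55 were tested. It covers the processing of SREBP (9 genes), the acetyl-CoA and isoprenoid side (9), sterol handling (12) and fatty acid handling (26). In all, 2 rose and 1 fell at an edgeR adjusted p under 0.05, which is 5.455% of the 55, against 2.12% of all genes tested. The 8 tested genes of SREBP processing, among them the site proteases Mbtps1 and Mbtps2, had 0 calls, and all 8 intervals lay within a 1.5-fold change. The changed genes were Acss2, Stard5 and Elovl2, 1 in each of the other groups.

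Acss2, which makes acetyl-CoA from acetate in cytosol and nucleus, measured 43.9, 46.7, 46.3 and 47.8 CPM without the injection and 64.5, 67.1, 57.6 and 72.3 CPM after it. It rose by 41.6% without overlap (log2 fold change 0.50, SE 0.09; edgeR adjusted p = 0.0103). Stard5, a sterol and bile acid binding relative of Stard4, measured 11.7, 14.3, 15.0 and 14.7 CPM without the injection and 19.7, 24.2, 23.2 and 25.5 CPM after it. It rose by 66.2%, also without overlap (log2 fold change 0.73, SE 0.13; edgeR adjusted p = 0.00851). Neither gene is wholly free of other gene models, with 47.8% of the exon length free for Acss2 and 56.1% for Stard5. Neither passed in the 6 libraries with Y-linked counts (edgeR adjusted p = 0.0741 and 0.18) or with the presence of such counts as a term (0.0591 and 0.0948), where the log2 fold changes were 0.51 and 0.66 in both fits.

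Elovl2, which lengthens polyunsaturated fatty acids, measured 32.2, 28.9, 26.4 and 30.9 CPM without the injection and 17.0, 18.7, 20.9 and 23.7 CPM after it. It fell by 0.56 on the log2 scale without overlap (SE 0.12; edgeR adjusted p = 0.0329). The call was lost without mouse 10, 12, 13, 14 or 15 (edgeR adjusted p from 0.0295 to 0.108 over the 8 such fits), in the 6 libraries with Y-linked counts (0.0797) and with libraries scaled by totals only (0.0704). The log2 fold change was -0.49 to -0.65 over the fits without a library, -0.73 in the 6 libraries and -0.59 with totals. The largest log2 fold change above 0 among uncalled genes with an unadjusted p under 0.05 was that of Mylip, an E3 ubiquitin ligase induced by sterols. It measured 6.01, 6.10, 2.28 and 4.42 CPM without the injection and 10.9, 4.43, 10.0 and 6.66 CPM after it, with mouse 14 inside the PTU range (log2 fold change 0.76, SE 0.33; edgeR adjusted p = 0.353).

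**Figure D4:**
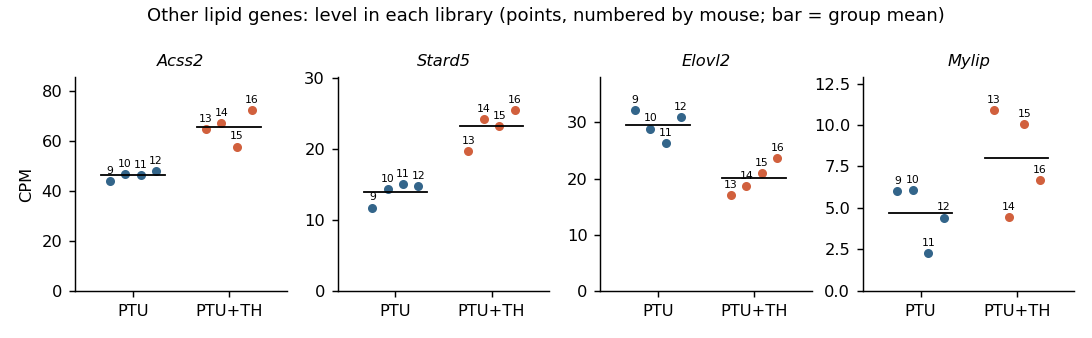
Level in CPM (y axis, from 0) of Acss2, Stard5, Elovl2 and Mylip in each library (points, numbered by mouse), with PTU in blue, PTU+TH in orange and the group mean as a bar. The groups are apart for Acss2, Stard5 and Elovl2 and overlap for Mylip.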

How the data were processed

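Nuclear RNA of sorted nuclei was made into cDNA with SMART-Seq v4 and into libraries with Nextera XT, and read single-end on a NextSeq 500, per the labels' protocols. The authors deposited raw counts of reads per gene symbol, 1 file per library. Bowtie2 2.5.3 and build GRCm38 (mm10) are named in the submitters' processing notes; the counting program, strand use and treatment of introns are not given in the sources used here. The 55341 symbols equal those of GENCODE M21, which gave positions and overlaps. Each file had 0 rows that name no gene.

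Groups come from the sample titles. Counts were filtered (filterByExpr), scaled by TMM and tested over all 17355 remaining genes with the robust quasi-likelihood test of edgeR 4.0.16 (R 4.3.3), group as the only term, two-sided, with Benjamini-Hochberg adjustment at 0.05. CPM (counts per 1000000 counts) was computed here after TMM. Each 95% interval is the log2 fold change with its SE times the t quantile of the fit. No library was a copy of another (chi-square per degree of freedom 8.38 to 72.6). The labels name 1 mouse per library but no litter or batch. The p-values set the difference between the groups against the spread between these mice. A difference of litter or batch between the groups could not be told apart from the injection.

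All 34 genes are accounted for. Values per library are given for those with an unadjusted p under 0.05 and for the main regulators and enzymes named at the outset. Those of Hmgcs1, Sqle and Abca1 are given outside this rule. Values of other lipid genes are given if called or largest in change. The 34 genes, the other lists and these rules were chosen, from known roles, with earlier results of these data known. Alternatives were RLE scaling, library totals, DESeq2 1.42.0, limma 3.58.1 voom, no filter, 6 libraries with Y-linked counts, their presence as a term, other thresholds and leaving out each library. The scripts were tested on simulated data.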

Additional observations from a re-analysis of the deposited data

Results flagged for a closer look

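For the 33 tested genes, each of 66 sets of 4 values was searched for a mouse that stands apart, which chance alone gives in about 5% of sets. There was 1 of the 66, a share under 5%. This was Sqle, the squalene epoxidase, at 30.2 CPM in PTU+TH mouse 14, below the 39.8 to 41.3 CPM of the other 3 PTU+TH mice. The gap to the nearest of them took 0.862 of the range. Mouse 14 was the lowest PTU+TH library for 8 of 17 sterol enzymes, against 24.2% of all genes tested. It had the largest total, 29084071 counts, and the lowest PTU+TH sums of excitatory (44.1 CPM), astrocyte (127.2 CPM), oligodendrocyte (96.3 CPM), oligodendrocyte precursor (40.1 CPM) and endothelial (35.6 CPM) markers. Their part in the low value was not tested.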

How the results depend on the processing

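The call of 0 lipid synthesis genes held in all 7 other fits of the scaling, tool, filter and Y-linked counts and at an adjusted p under 0.1, and leaving out a library gave 0 to 1 (Fdft1). No paired analysis was possible because the groups share no mouse numbers. Over all genes 368 were called; the number was 756 with DESeq2, 58 in the 6 libraries with Y-linked counts, 129 with those counts as a term, 145 at an adjusted p under 0.01, and 182 (without PTU+TH mouse 15) to 499 (without PTU mouse 9) when a library was left out; it also moved by over 1.5 times without PTU mouse 12 (233) and PTU+TH mice 13 (238), 14 (227) and 16 (209). The stricter threshold lowers the count by construction; of the other moves, the cause was not tested. The 3 other lipid genes called were 5 with DESeq2 (also Nceh1 and Acsl3), 0 in the 6 libraries, 1 (Elovl2) with the Y-linked term, and 2 to 6 when a library was left out (6 without PTU mouse 9). Klf9 and Dbp, known TH targets, also lost their calls in the 6 libraries (edgeR adjusted p = 0.058 and 0.102), with log2 fold changes of 1.23 and 1.14 against 1.37 and 1.09 in all 8.

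Of 33 genes 20 kept their direction in all 15 alternatives. The other 13, with log2 fold changes from -0.06 to 0.19, changed it: Hmgcs1 to 0.0073 with voom; Pmvk to -0.0072 with totals, -0.0103 in the 6 libraries and -0.0116 with the Y-linked term; Tm7sf2 to -0.0174 with totals and -0.0011 with voom; Dhcr7 to -0.0174 with totals, -0.0023 with voom, -0.0288 in the 6 libraries and -0.0302 with the term; Fasn to 0.015, 0.0076 and 0.0061 with voom, the 6 libraries and the term; Elovl6 to -0.074 and -0.0753 in the last 2. Across fits that left out a library the ranges were -0.1969 to 0.2401 for Hmgcs1, -0.016 to 0.0596 for Pmvk, -0.0769 to 0.0766 for Tm7sf2, -0.1663 to 0.1041 for Nsdhl, -0.211 to 0.1037 for Hsd17b7, -0.0576 to 0.2687 for Ebp, -0.0472 to 0.0887 for Dhcr7, -0.0629 to 0.0964 for Srebf1, -0.1114 to 0.1607 for Fasn, -0.0685 to 0.1059 for Acaca, -0.0216 to 0.4788 for Acacb and -0.1044 to 0.0826 for Acly. Scaling moved the median of all genes to -0.028 at most. Few counts limit Scd1, Fdps, Idi1, Thrsp and Acacb.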
